A study of Mus musculus with 2 samples.

Results

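The genes described here encode nuclear subunits of the 5 oxidative phosphorylation complexes. They were taken by symbol from the single-cell expression matrix: names that begin Nduf followed by a, b, c, s or v and a number (complex I), Sdha to Sdhd (complex II), names that begin Uqcr (complex III), Cox4 to Cox8 (complex IV) and Atp5 (complex V, the ATP synthase). Of 16819 gene symbols, 80 matched, with 37 in complex I, 4 in complex II, 8 in complex III, 15 in complex IV and 16 in complex V. The genes lie on 19 chromosomes. Subunit genes with other names are not counted, so a complex below means its genes in this set. The cells were CD45+ DAPI− immune cells sorted from dorsal root ganglia (DRG) of naive, wild-type BALB/cAnNRj mice, with ganglia of cervical, thoracic and lumbar levels pooled. All cells were run in 1 lane of the droplet-based 10x 3′ assay, and hashtag antibodies marked 3 male and 3 female mice. No group was treated, so the comparisons are between cell types and between macrophages that differ in Fcrls and Ccr2 RNA, a pair of genes that marked separate macrophage subsets in the study.

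Complex I (NADH dehydrogenase) and complex II (succinate dehydrogenase) pass electrons from NADH and succinate to ubiquinone, complex III passes them on to cytochrome c and complex IV (cytochrome c oxidase) to oxygen. Complexes I, III and IV pump protons out of the mitochondrial matrix, and complex V lets them back in to make ATP. Some core subunits of complexes I, III, IV and V are encoded by mitochondrial DNA, and all subunits of complex II and the majority of the others are nuclear. Several complex IV subunits exist as isoforms from separate genes, some of which are best known from heart, skeletal muscle, lung or testis. Neutrophils are known for a reliance on glycolysis and for few mitochondria.

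The 3 male mice gave 481, 772 and 1415 cells with 4239463, 5656097 and 13508078 UMIs (unique molecular identifiers, each 1 captured RNA molecule), and the 3 female mice gave 313 to 382 cells each. Cells were clustered with the 80 genes and the mitochondrially encoded genes left out of the clustering features, so that the genes described here did not make the groups. Among male cells, 1489 were macrophages, 565 neutrophils, 155 monocytes, 137 T and NK cells, 135 B cells and 51 dendritic cells (DCs), and the other 136 cells stood outside these types. Macrophages were named by their level of C1qa, C1qb and C1qc, which took 1.673% of UMIs in macrophages and 0.0182% in neutrophils, a low level that free macrophage RNA can give. The monocyte cluster also had Cd209a among its leading genes, and names rebuilt in this way can differ from the study's. The 51 DCs were led by Xcr1, Tbc1d4, Itgae and Clec9a. When the subunit and mitochondrially encoded genes were not left out of the features, the monocytes were 107 cells without Cd209a among their leading genes. The DCs were then 98 cells, with Xcr1 and Cd209a among theirs, so the border between monocytes and DCs depended on the clustering. Median UMIs per cell ran from 3209 in B cells to 13968 in DCs. The DCs of male mouse 1 were 6 cells.

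A short stretch of promoter is shown for 4 subunit genes that differed between the cell types or macrophage classes below. It lies within 250 bases before the RefSeq gene start (build GRCm38.p6) and reads 5′ to 3′ in the direction of transcription, with a motif in capitals. Capitals in Uqcrh, a hinge subunit of complex III, and Atp5e, the epsilon subunit of ATP synthase, mark the ETS motif CCGGAAG or its reverse. Those in Atp5h, the d subunit of its stator, mark an NRF1 motif (any base was accepted at position 6, counted from 1 at its 5′ end), and those in Sdhd, a membrane anchor of complex II, mark one of each.
Uqcrh, chr4:116075071-116075160, minus strand: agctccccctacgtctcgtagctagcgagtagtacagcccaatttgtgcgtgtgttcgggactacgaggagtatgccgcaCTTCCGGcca
Atp5e, chr2:174464129-174464218, minus strand: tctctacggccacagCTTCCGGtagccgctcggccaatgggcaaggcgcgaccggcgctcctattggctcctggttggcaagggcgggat
Atp5h, chr11:115419986-115420075, minus strand: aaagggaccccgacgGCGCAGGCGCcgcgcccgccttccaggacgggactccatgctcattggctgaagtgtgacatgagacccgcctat
Sdhd, chr9:50603854-50603943, minus strand: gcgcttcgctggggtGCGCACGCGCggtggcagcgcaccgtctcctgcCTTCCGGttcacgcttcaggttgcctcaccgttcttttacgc
These letters were common among the subunit genes. In windows from 250 bases before to 50 bases after the start, read on both strands, the NRF1 motif occurred in 16 of the 65 subunit genes with a RefSeq promoter (24.6%) and in 5.19% of 27025 genes. The ETS motif occurred in 24.6% of the subunit genes and in 9.93% of all genes. The YY1 motif AANATGGCG was in 15.4% and 2.76%, the CRE motif TGACGTCA in 6.15% and 2.03%, and the TATA motif TATAAA in 7.69% and 15.7%. In all, 28 of the 65 had an NRF1 or ETS match and 4 had both. A match describes the letters only, and no binding was measured. The other 15 subunit genes had no entry in the promoter table used.

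The share of a cell type's UMIs that came from the 80 genes ran from about 1% in neutrophils to about 2% in monocytes. In macrophages the share was 1.461%, 1.383% and 1.624% in male mice 1, 2 and 3. In monocytes it was 2.083%, 2.0% and 2.085%, above macrophages in each mouse. In neutrophils it was 1.059%, 1.077% and 0.9462%, below macrophages in each mouse. These 3 types did not overlap, and mouse 3 had both the highest macrophage and the lowest neutrophil value. The mean was 1.955% ± 0.181 in B cells, 1.943% ± 0.116 in T and NK cells and 1.708% ± 0.0749 in DCs (SD, n = 3 mice each). B cells, T and NK cells and monocytes lay within each other's spread, since B cells ranged from 1.749% to 2.088%. As a ratio within each mouse, the share was 1.385 ± 0.0884 times that of macrophages in monocytes, 1.316 ± 0.137 in B cells, 1.307 ± 0.0773 in T and NK cells, 1.152 ± 0.0969 in DCs and 0.695 ± 0.101 in neutrophils. No test was made on these sums over the chosen genes.

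**Figure D1:**
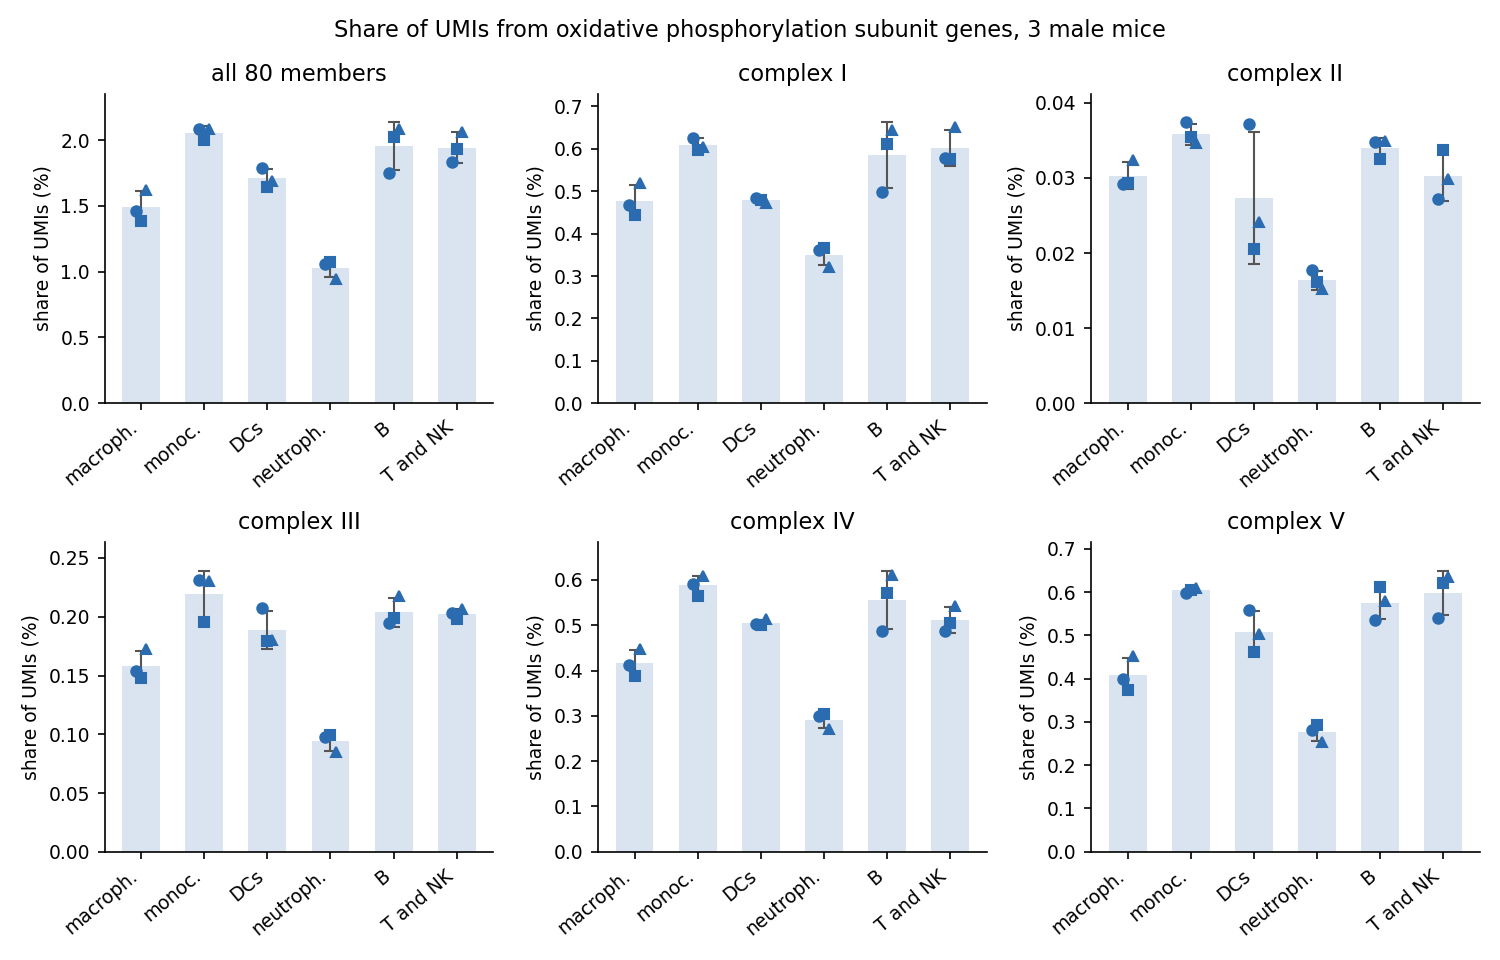
Share of all UMIs (percent) from the 80 subunit genes and from each complex in 6 cell types of 3 male mice. Bars are means, lines are SD, and circles, squares and triangles are mice 1, 2 and 3. Neutrophils were lowest and macrophages came next for all members (1.027% and 1.489%), while monocytes had the highest mean (2.056%).

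A share depends on what else the cell contains. The 10 most abundant genes took a median of 48.8% of UMIs in neutrophils, led by S100a9, S100a8, Ngp and Camp, against 20.2% in macrophages and 12.2% in monocytes. Cytosolic ribosomal protein genes took 3.76% in neutrophils, 14.9% in macrophages, 21.6% in B cells and 26.2% in T and NK cells. With these ribosomal genes taken out of the total, the share of the 80 genes was 1.068% in neutrophils, 1.749% in macrophages, 2.559% in monocytes, 2.491% in B cells and 2.636% in T and NK cells. Neutrophils and macrophages stayed the lowest, and the highest mean passed from monocytes to T and NK cells. Fewer subunit molecules per cell and more molecules of other genes cannot be told apart in a share.

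The complexes kept nearly the same proportions in all cell types. Of macrophage UMIs from the 80 genes, 31.99% ± 0.122 were from complex I, 2.04% ± 0.0743 from complex II, 10.6% ± 0.0841 from complex III, 27.96% ± 0.333 from complex IV and 27.41% ± 0.410 from complex V (SD, n = 3). Complex I made up less in monocytes (29.65% ± 0.601) and in DCs (28.05% ± 1.09) and more in neutrophils (34.06% ± 0.151). The lowest of the 3 neutrophil values, 33.91%, lay above the highest macrophage value, 32.13%. In the female mice, clustered together with the male cells, the order was the other way, with 32.11% ± 0.294 in neutrophils and 32.53% ± 0.497 in macrophages. Complex III made up 9.14% ± 0.175 in neutrophils, below each macrophage value. Complex V was highest in T and NK cells, with 30.75% ± 1.36. Against macrophages, the share of complex II was 0.542 ± 0.0677 in neutrophils, the lowest ratio of the 5 complexes there, and complex V in monocytes had the highest ratio, 1.487 ± 0.138. Across the 80 genes, the rank order of levels followed that of macrophages with Spearman's rho of 0.961 in monocytes, 0.955 in DCs, 0.953 in T and NK cells, 0.923 in B cells and 0.892 in neutrophils. The genes are not independent points, and each value shares the macrophage sums.

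The mitochondrially encoded subunits took 1.926% ± 0.0719 of UMIs in macrophages, 1.591% ± 0.110 in monocytes and 1.129% ± 0.145 in DCs, so monocytes and DCs, with a higher nuclear share than macrophages, had a lower mitochondrial one. In B cells and in T and NK cells both were higher, with 2.946% ± 0.0596 and 2.139% ± 0.0718 mitochondrially encoded. In neutrophils both were lower, and the mitochondrially encoded share was 0.5056%, 0.4893% and 0.4531% in mice 1, 2 and 3. As a ratio to macrophages within each mouse, that was 0.251 ± 0.0114, against 0.695 ± 0.101 for the nuclear genes. The authors kept cells with under 5% mitochondrial UMIs, which limits how high this share could be in any type.

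The neutrophils fell into 3 clusters, and the share of the 80 genes differed among them. It was 1.432% ± 0.119 in the 65 cells led by Fcnb and Elane, a gene of the primary granules made early in neutrophil formation. In the 236 cells led by genes such as Mmp8 and Ltf, of later granules, it was 0.893% ± 0.0770. In the 264 cells led by Asprv1 and Acod1, where Cxcr2, a chemokine receptor of late neutrophils, was also high, it was 0.750% ± 0.0267. The mitochondrially encoded share was 0.762%, 0.394% and 0.260% in the same order. Median UMIs per cell were 20237, 9945.5 and 3184, and proliferation genes were raised in the Fcnb cluster. The part of depth and proliferation in this difference was not tested. Among macrophages, the 81 cells led by the replication genes Mcm6 and Mcm2 had 2.124% ± 0.178, and the pair of large clusters had 1.417% ± 0.0811 and 1.448% ± 0.0766. The unnamed cluster of 107 cells with raised proliferation genes and markers of several types had 2.74% ± 0.0456, the highest of the 14 clusters, with 17769 median UMIs. The primary granule genes Elane, Mpo, Prtn3 and Ctsg were raised in it, and its cells were not counted among the neutrophils.

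**Figure D2:**
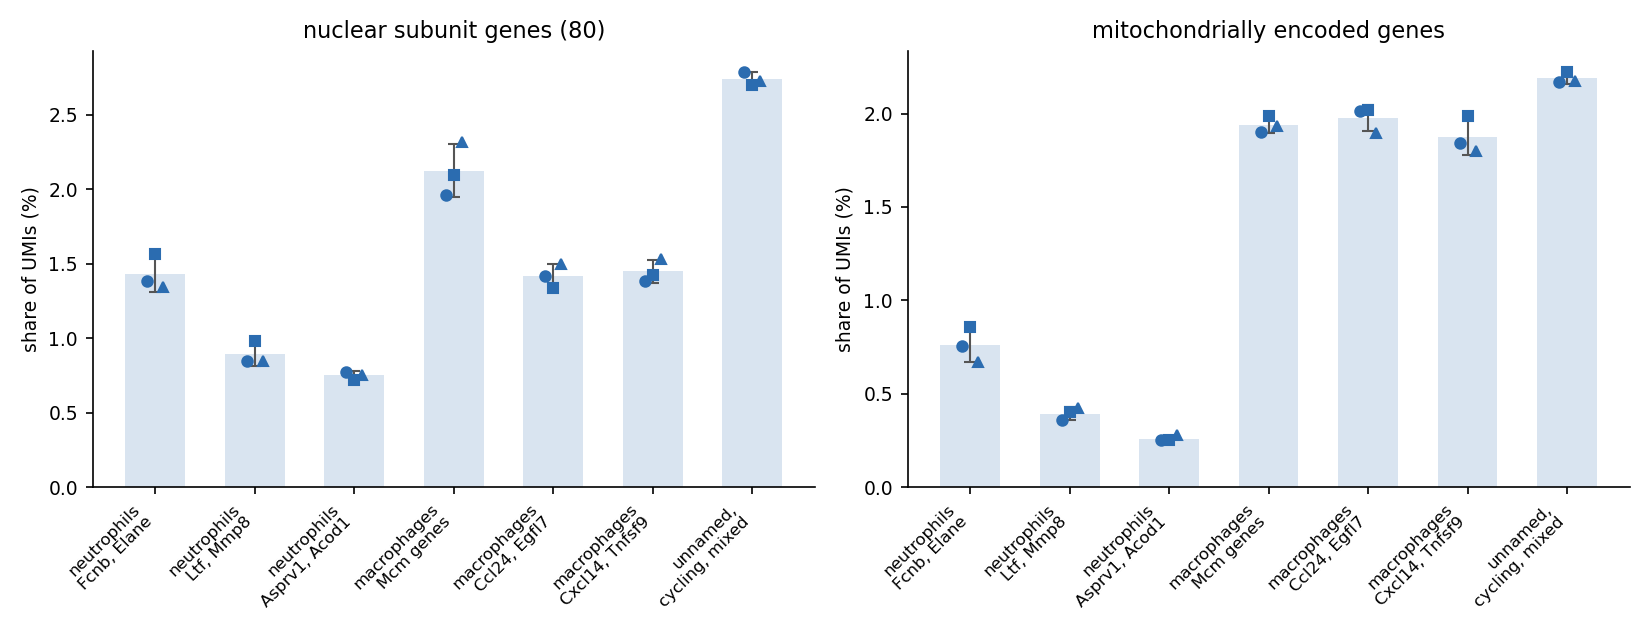
Share of UMIs (percent) from the 80 nuclear subunit genes (left) and from the mitochondrially encoded subunits (right) in 3 neutrophil clusters, 3 macrophage clusters and the unnamed cycling cluster. Bars are means over 3 male mice, lines are SD and symbols are mice. Both shares were highest in the Fcnb cluster among neutrophils (1.432% and 0.762%) and lowest in the Asprv1 cluster (0.750% and 0.260%).

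Single subunit genes differed in how far they fell across the neutrophil clusters. Ndufc2, an accessory subunit of complex I, had 111.6 UMIs per 1000000 UMIs (CPM) in the Fcnb cluster, 35.0 in the Ltf cluster and 7.69 ± 4.55 in the Asprv1 cluster. Atp5g2, which encodes the c subunit of the ATP synthase rotor, had 316 ± 112, 58.2 ± 16.8 and 18.7 ± 14.6 CPM in the same order, and Uqcrb, a small subunit of complex III, had 290 ± 65.8, 114 ± 24.6 and 25.1 ± 6.04. Each mouse had its highest value of these 3 genes in the Fcnb cluster and its lowest in the Asprv1 cluster. Cox8a, a small subunit of complex IV, stayed high with 716, 490 and 615 CPM, and Cox7a2l, a subunit that links complexes III and IV, had 88.4, 102 and 119 CPM. Ndufa7 of complex I went the other way, with 102 ± 20.2, 125 ± 20.7 and 166 ± 6.44 CPM. Atp5g2 and Ndufa7 were picked after their values were seen, and no test was made between clusters.

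Macrophages were then grouped by whether a cell had a UMI of Fcrls or of Ccr2. In the male mice, 670 had only Fcrls (Fcrls-only), 578 both, 164 only Ccr2 (Ccr2-only) and 77 neither, with 8483.5, 9033, 7999.5 and 6327 median UMIs. In the female mice these were 297, 228, 59 and 35 cells, with 7822, 7918, 6838 and 1931 median UMIs. The share of the 80 genes was close in Fcrls-only and Ccr2-only macrophages. Macrophages with both had 1.032 ± 0.00302 times the Fcrls-only share, above 1 in 3 of 3 male mice. Those with neither had 0.923 ± 0.0598 times, below 1 in 3 of 3. In the female mice these ratios were 1.023 ± 0.0579 and 0.987 ± 0.0934, each with values on both sides of 1. Fcrls-only macrophages had 1.452%, 1.367% and 1.616% in male mice 1, 2 and 3, and Ccr2-only macrophages 1.449%, 1.363% and 1.525%. The ranges overlapped, and the ratio within each mouse was 0.980 ± 0.0311. In the female mice, Fcrls-only macrophages had 1.255%, 1.435% and 1.404% and Ccr2-only macrophages 1.385%, 1.338% and 1.39%, a ratio of 1.009 ± 0.0871. Ribosomal protein genes took 17.6% of UMIs in Ccr2-only and 13.3% in Fcrls-only macrophages of the male mice. With them out of the total, the order of the means turned, with 1.754% in Ccr2-only and 1.705% in Fcrls-only macrophages.

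Complex I made up less of the subunit UMIs in Ccr2-only macrophages. Its share in Ccr2-only macrophages was 0.908 ± 0.0212 times that in Fcrls-only macrophages, below 1 in 3 of 3 male mice. Among UMIs of the 80 genes, a measure that no other gene enters, complex I made up 30.35% to 30.59% in Ccr2-only and 32.54% to 33.29% in Fcrls-only macrophages of the male mice. In the female mice it made up 30.71% to 31.78% in Ccr2-only and 32.97% to 33.13% in Fcrls-only macrophages, so the classes did not overlap in either sex. The ratio of the shares themselves was 0.951 ± 0.1001 in the female mice and below 1 in 2 of 3. Ndufa4 counts with complex I by its name, although the protein is now placed in complex IV. Without it, complex I made up 27.99% to 28.14% in Ccr2-only and 29.76% to 30.45% in Fcrls-only macrophages of the male mice, and 28.5% to 29.53% against 30.29% to 30.56% in the female mice. No single complex I gene passed the test described next, and no test was made on the sums. The median log2 fold of complex I genes in that test was 0.002 in male mice, against −0.009 over all genes. Without scaling factors it was −0.103 against −0.115, so the median complex I gene of male mice was not lower than the bulk. In female mice it was −0.036 against 0.010, and −0.092 against −0.048 without factors. The complexes are parts of 1 sum, so a lower part of 1 goes with a higher part of others. The male ratios for complexes II, III, IV and V were 0.986 ± 0.104, 1.078 ± 0.0895, 0.989 ± 0.0337 and 1.019 ± 0.0274, each with values on both sides of 1. In the female mice they were 0.872 ± 0.136, 0.961 ± 0.0336, 1.054 ± 0.0739 and 1.064 ± 0.110, and complexes II and III were below 1 in 3 of 3. Complex V made up more of the subunit UMIs in Ccr2-only macrophages, with 27.18% to 28.49% against 26.25% to 27.15% in male and 27.47% to 28.87% against 26.41% to 26.77% in female mice. Complex III did not overlap in the male mice alone (11.01% to 11.57% against 10.04% to 10.62%), and complexes II and IV in the female mice alone. Mitochondrially encoded subunits had a ratio of 0.906 ± 0.0167, below 1 in 3 of 3 male and in 3 of 3 female mice (0.919 ± 0.0687).

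**Figure D3:**
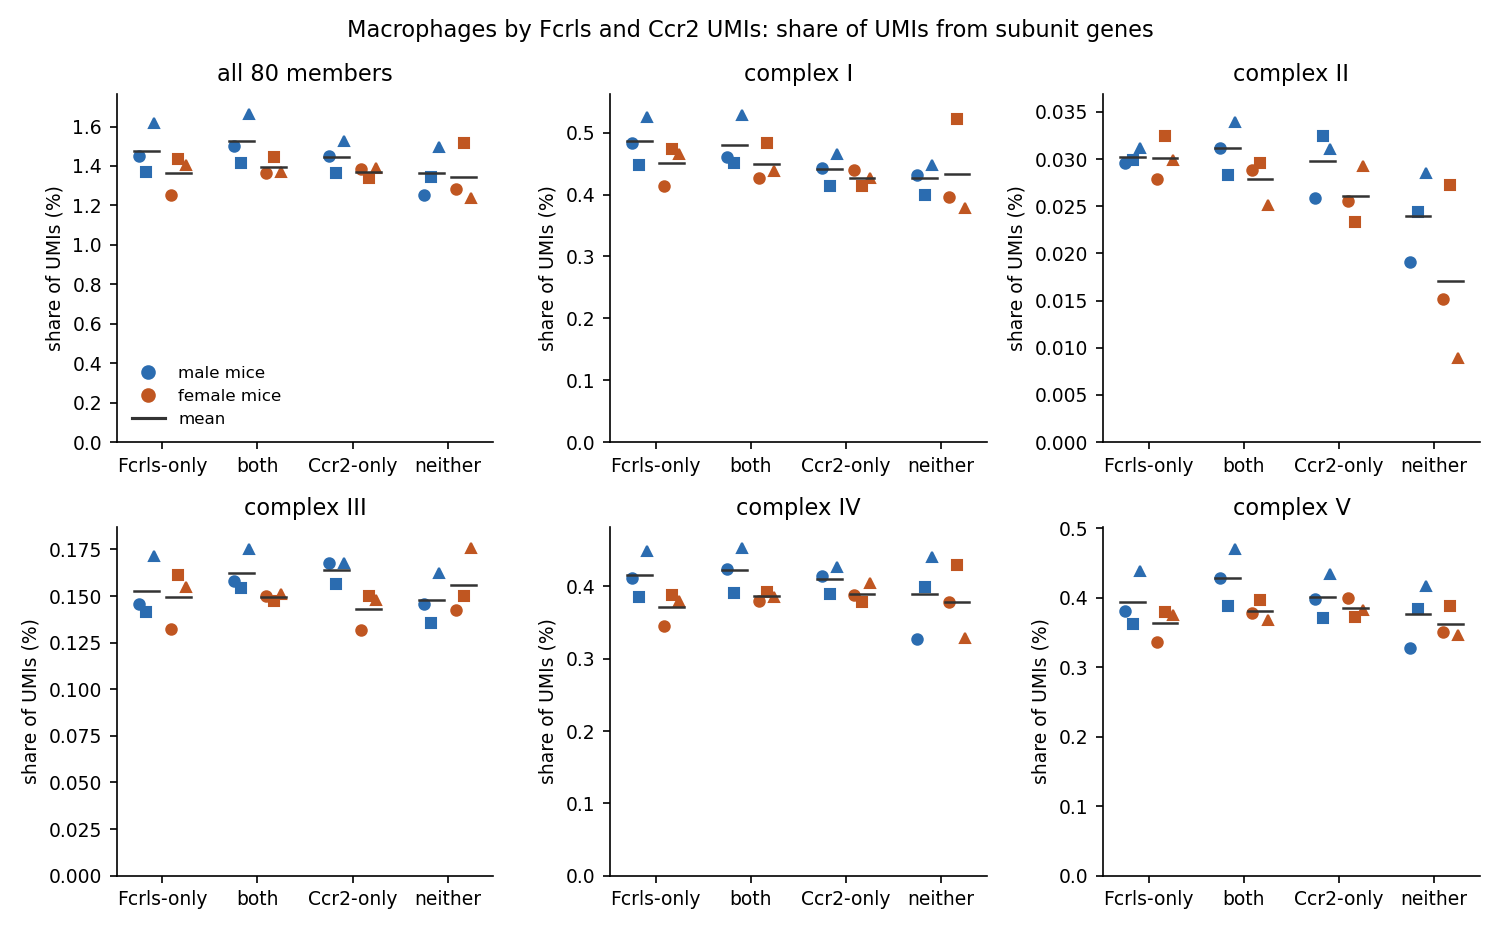
Share of UMIs (percent) from the 80 subunit genes and from each complex in macrophages by Fcrls and Ccr2 UMIs. Circles, squares and triangles are mice 1, 2 and 3 of each sex, and lines are means. Male Fcrls-only and Ccr2-only macrophages had means of 1.478% and 1.446% for all members, with overlapping mice.

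Gene by gene, 1 subunit gene differed between the macrophage classes of the male mice. Uqcrh had 545, 513 and 455 CPM in Ccr2-only macrophages of mice 1, 2 and 3, and 342, 324 and 374 CPM in Fcrls-only macrophages. All Ccr2-only values lay above all Fcrls-only values. The log2 fold was 0.63 ± 0.13 (SE, adjusted p = 0.00348, edgeR's quasi-likelihood test, adjusted by Benjamini-Hochberg over all genes tested). It was 0.58 without mouse 1 (adjusted p = 0.0539) and 0.55 without mouse 2 (adjusted p = 0.0854), above the threshold of 0.05 used throughout. Of 75 members tested, this was 1 called higher and 0 lower, against 5.88% higher and 4.48% lower among the 5850 genes tested (without scaling factors also 1 and 0, against 4.17% and 6.38%), and 8 members had an unadjusted p under 0.05. The median log2 fold was 0.03 over the members and −0.01 over all genes. With the mouse as a block, since both classes came from the same animals, 3 of 75 members were called higher and 0 lower, against 7.30% and 5.85% of all genes. These were Uqcrh (log2 fold 0.62, adjusted p = 0.000416, edgeR), Uqcrfs1, the Rieske iron-sulfur protein of complex III (0.48, adjusted p = 0.0396), and Cox7a2l (0.40, adjusted p = 0.0219).

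Ccr2-only sums of the female mice held 107257 to 164069 UMIs, against 189085 to 764965 in the male mice, so precision was lower. In the female mice, Uqcrh had 421, 298 and 429 CPM in Ccr2-only and 307, 345 and 398 CPM in Fcrls-only macrophages, and these groups overlapped. Its log2 fold was 0.20 (adjusted p = 0.606, edgeR). The 1 member called there was Cox5a, a structural subunit of complex IV, with 128, 93.2 and 143 CPM in Ccr2-only and 226, 199 and 217 CPM in Fcrls-only macrophages. The groups did not overlap, and the log2 fold was −0.74 ± 0.22 (adjusted p = 0.0398), but the call was lost without any single mouse (adjusted p of 0.136 to 0.173). In the male mice Cox5a had a log2 fold of −0.13 (adjusted p = 0.716). Of 73 members tested in the female mice, 0 were higher and 1 was lower, against 4.05% and 3.44% of 4075 genes (without scaling factors also 0 and 1, against 3.51% and 3.95%), and 5 had an unadjusted p under 0.05. The difference of the fold between the sexes was tested for 75 members and passed for 0 by edgeR, with 2 under an unadjusted p of 0.05, and for 0 of 6209 genes, with 253 under it. Cox7a2l, with Ccr2-only values of 312, 384 and 302 CPM in male and 341, 364 and 358 CPM in female mice, lay above every Fcrls-only value of its sex (264 to 277 CPM and 279 to 298 CPM). Its log2 fold was 0.40 (adjusted p = 0.0864, edgeR) in male and 0.36 (adjusted p = 0.228) in female mice. In the fit of 6 mice with a sex term it was 0.37 (adjusted p = 0.00805, edgeR). That fit called 3 of 74 members higher and 0 lower, against 8.73% and 7.61% of all genes. Cox7a2l was not alone, since 6 of the 80 members lay apart higher and 8 lower in each sex. The share of all genes that lay apart was not counted, so lying apart is no result by itself.

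Between cell types, 74 of the 80 genes could be tested, and Ndufa4l2, Cox4i2, Cox6a2, Cox6b2, Cox7a1 and Atp5s were too low. The 5 comparisons used the same macrophage sums. Results are given with and without TMM scaling factors, because the choice moved the split of calls. TMM factors centre the folds on the bulk of the genes and were 0.534 to 0.627 in neutrophils, 1.26 to 1.39 in B, T and NK cells and 0.909 to 0.956 in macrophages, and without factors a fold follows the share of UMIs. No member was called in opposite directions by the scalings in any comparison. The genes named below were called by both unless stated.

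In monocytes, subunit genes called higher than in macrophages outnumbered those called lower under both scalings. With TMM, 16 members were higher and 4 lower, against 17.7% and 18.4% of 6214 genes, and the median log2 fold was 0.18 over the members and −0.01 over all genes. Without factors it was 36 higher and 0 lower, against 27.5% and 12.4%, with medians of 0.42 and 0.22. The share of members called higher with TMM passed that of all genes in all 3 mice together, but not with a mouse left out, where it was 10, 6 and 6 members (13.5%, 8.11% and 8.22%) without mouse 1, 2 and 3, against 13.8%, 12.9% and 12.2% of all genes. In the 3 female mice, 11 of 73 were higher and 1 lower, against 14.1% and 12.6%. All 16 were higher under both. They were 5 of the 15 complex V genes tested (Atp5c1, Atp5e, Atp5f1, Atp5h and Atp5l), 4 of 11 of complex IV and 3 of 8 of complex III. Complexes I and II had 3 of 36 and 1 of 4. Uqcrfs1 had 299, 205 and 265 CPM in monocytes of mice 1, 2 and 3 and 102, 101 and 108 CPM in macrophages. All monocyte values were above those of macrophages, and the log2 fold was 1.07 ± 0.15 (adjusted p = 7.11e-07, edgeR). Atp5c1 had 476, 438 and 472 CPM against 228, 217 and 228 CPM, with no overlap and a log2 fold of 0.80 ± 0.13 (adjusted p = 1.32e-05). Ndufa6, an accessory subunit of complex I, had 378, 370 and 403 CPM against 185, 181 and 202 CPM and a log2 fold of 0.78. Atp5f1, of the stator of ATP synthase, had a log2 fold of 0.70, and Atp5l, a membrane subunit of it, had 0.63, which was 0.53 without mouse 2 (adjusted p = 0.0514). Sdhd had 125, 99.9 and 122 CPM against 63.7, 60.7 and 75.8 CPM and a log2 fold of 0.56. The 4 members lower with TMM, Sdha, Ndufa5, Sdhc and Uqcr11 (−0.68, −0.68, −0.64 and −0.38), were not called without factors.

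In DCs, the share of subunit genes called higher was near that of all genes. With TMM, 11 of 74 (14.9%) were higher and 2 (2.70%) lower, against 15.6% and 17.9% of genes, with medians of 0.06 and −0.09. Of the 11, 4 were of the 15 complex V genes tested and 4 of the 11 of complex IV. Without factors it was 10 higher and 2 lower, against 14.7% and 18.8%, with medians of 0.02 and −0.14. In the 3 female mice, 7 of 73 were higher and 2 lower with TMM, against 12.3% and 13.6%. Cox7a2l had 453, 507 and 549 CPM in DCs and 300, 313 and 277 CPM in macrophages. The groups did not overlap, and the log2 fold was 0.79 ± 0.15 (adjusted p = 0.000123, edgeR). Uqcrfs1 (0.90), Ndufa6 (0.86), Atp5c1 (0.73) and Atp5f1 (0.72) were also higher. The 2 lower members were both of complex I. Ndufs7, an iron-sulfur subunit, had 101, 86.1 and 72.3 CPM against 141, 135 and 131 CPM (log2 fold −0.71 ± 0.23, adjusted p = 0.0148), and Ndufv3, a small flavoprotein subunit, had 111, 86.1 and 93.8 CPM against 140, 129 and 165 CPM (−0.60 ± 0.19, adjusted p = 0.0127). Neither overlapped with macrophages. Both calls were lost without mouse 2 (adjusted p = 0.0689 and 0.0773) or without mouse 3 (adjusted p = 0.118 and 0.117).

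In neutrophils of the male mice the subunit genes were called on both sides, with a median near that of all genes. With TMM, 20 of 74 (27.0%) were higher and 18 (24.3%) lower, against 33.0% and 37.0% of genes, with a median log2 fold of −0.07 over the members and −0.10 over all genes. Without factors it was 2 higher and 54 lower, against 18.7% and 57.6%, with medians of −0.73 and −0.78. The split was not the same in the 3 female mice, where 23 of 73 were higher and 3 lower with TMM, against 27.0% and 25.1% of 4402 genes, with medians of 0.25 and 0.00. These mice were clustered together with the male cells. In that joint clustering the neutrophils of male mice 1, 2 and 3 had a share of 1.32%, 1.24% and 1.403%. In the clustering of male cells alone they had 1.059%, 1.077% and 0.9462%, so the clustering by itself moved the male values. Tests between cell types were not made on the male cells of the joint clustering, and the part of sex in the split was not tested. The 2 higher under both scalings were Ndufb7 and Atp5f1, and 18 members were lower under both. Ndufb7 had 284, 322 and 265 CPM in neutrophils and 178, 172 and 207 CPM in macrophages. All neutrophil values were higher, and the log2 fold was 1.27 ± 0.16 with TMM (adjusted p = 2.62e-08, edgeR) and 0.61 without factors (adjusted p = 0.000931). Atp5f1 had 272, 259 and 257 CPM against 192, 184 and 244 CPM, with log2 folds of 0.98 and 0.32 and no overlap. Ndufc2 had 58.8, 59.8 and 41.8 CPM against 188, 183 and 200 CPM, the lowest fold of the members at −1.24 ± 0.16 (adjusted p = 1.01e-07). Atp5g1, another gene for the c subunit of the rotor, had 54.7, 64.4 and 35.2 CPM against 175, 154 and 193 CPM and a log2 fold of −1.22. The groups of both genes were apart, but in the 3 female mice the log2 fold of Atp5g1 was 0.11 (adjusted p = 0.608, edgeR). Also lower were 3 genes of complex I, Ndufa9 (−1.06), Ndufa5 (−1.05) and Ndufs3 (−0.99), a core subunit. Cox7a2l, which was high in DCs, had 109, 90.4 and 107 CPM in neutrophils and a log2 fold of −0.87. Ndufa1, Cox5a and Ndufv3 were higher with TMM (0.93, 0.85 and 0.81) and not called without factors.

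In B cells and in T and NK cells the split between higher and lower turned with the scaling. It also turned between the male mice and the female mice, whose classes came from another clustering. In that clustering the T and NK cells of the male mice were 93 cells, against 137 here. In B cells, 7 members were higher and 21 lower with TMM, against 20.0% and 26.4% of genes, with medians of −0.16 over the members and −0.08 over all genes. Without factors it was 35 higher and 2 lower, against 37.8% and 17.3%, with medians of 0.40 and 0.45. In T and NK cells it was 4 higher and 13 lower, against 20.6% and 25.7%, with medians of −0.08 and −0.03, and 34 higher and 1 lower without factors, against 37.9% and 17.4%, with medians of 0.40 and 0.45. In the 3 female mice with TMM, 16 of 73 members were higher and 4 lower in B cells, against 25.9% and 27.1% of genes, with medians of 0.13 and 0.05, and 12 were higher and 4 lower in T and NK cells, against 18.1% and 22.0%, with medians of 0.04 and 0.00. The 28 calls with TMM in B cells of the male mice were 18, 17 and 17 without mouse 1, 2 and 3, and the 17 in T and NK cells were 9, 7 and 8. Under both scalings, 7 members were higher and 2 lower in B cells, and 4 higher and 1 lower in T and NK cells. In B cells the 7 included genes of the alpha and beta subunits of the ATP synthase. Atp5a1, the alpha subunit, had 415, 582 and 413 CPM against 215, 204 and 227 CPM (log2 fold 0.57 ± 0.15, adjusted p = 0.00287, edgeR). Atp5b, the beta subunit, had 476, 565 and 432 CPM against 240, 232 and 233 CPM (0.51 ± 0.14, adjusted p = 0.00375, edgeR). All B cell values were above those of macrophages. Without mouse 2, only 1 member was called higher with TMM, and the adjusted p of Atp5a1 and Atp5b was 0.157 and 0.129. Uqcrfs1 (0.79), Ndufs8, a core iron-sulfur subunit of complex I (0.68), and Atp5g3 (0.67) were also higher, and the last 2 calls were lost without mouse 2 as well (adjusted p = 0.0842 and 0.0651), as was Ndufs8 without mouse 3 (adjusted p = 0.0759).

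The 2 members lower in B cells under both scalings belonged to complex III. Uqcrb had 159, 180 and 196 CPM in B cells and 254, 232 and 295 CPM in macrophages, with no overlap (log2 fold −1.07 ± 0.18, adjusted p = 1.5e-05, edgeR). Uqcr11 had 166, 197 and 187 CPM against 240, 239 and 277 CPM (−0.997 ± 0.178, adjusted p = 3.24e-05), also apart. Uqcrh and Uqcrfs1 of the same complex were higher in B cells, so that its subunit genes did not move together. In T and NK cells, Ndufc2 was the member lower under both scalings, with 105, 124 and 116 CPM against 188, 183 and 200 CPM, no overlap and a log2 fold of −1.20 ± 0.20 (adjusted p = 1.25e-05). Atp5g3, Atp5h, Ndufv3 and Uqcrh were higher (0.52, 0.49, 0.44 and 0.35), with all values above those of macrophages. Without mouse 2 each adjusted p of these 4 was between 0.091 and 0.188, and 0 members were higher with TMM, with 17 members at an unadjusted p under 0.05 in either direction. Without mouse 1, Atp5g3, Ndufv3 and Uqcrh had adjusted p of 0.189, 0.0588 and 0.107, and without mouse 3, Ndufv3 and Uqcrh had 0.0519 and 0.0804.

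**Figure D4:**
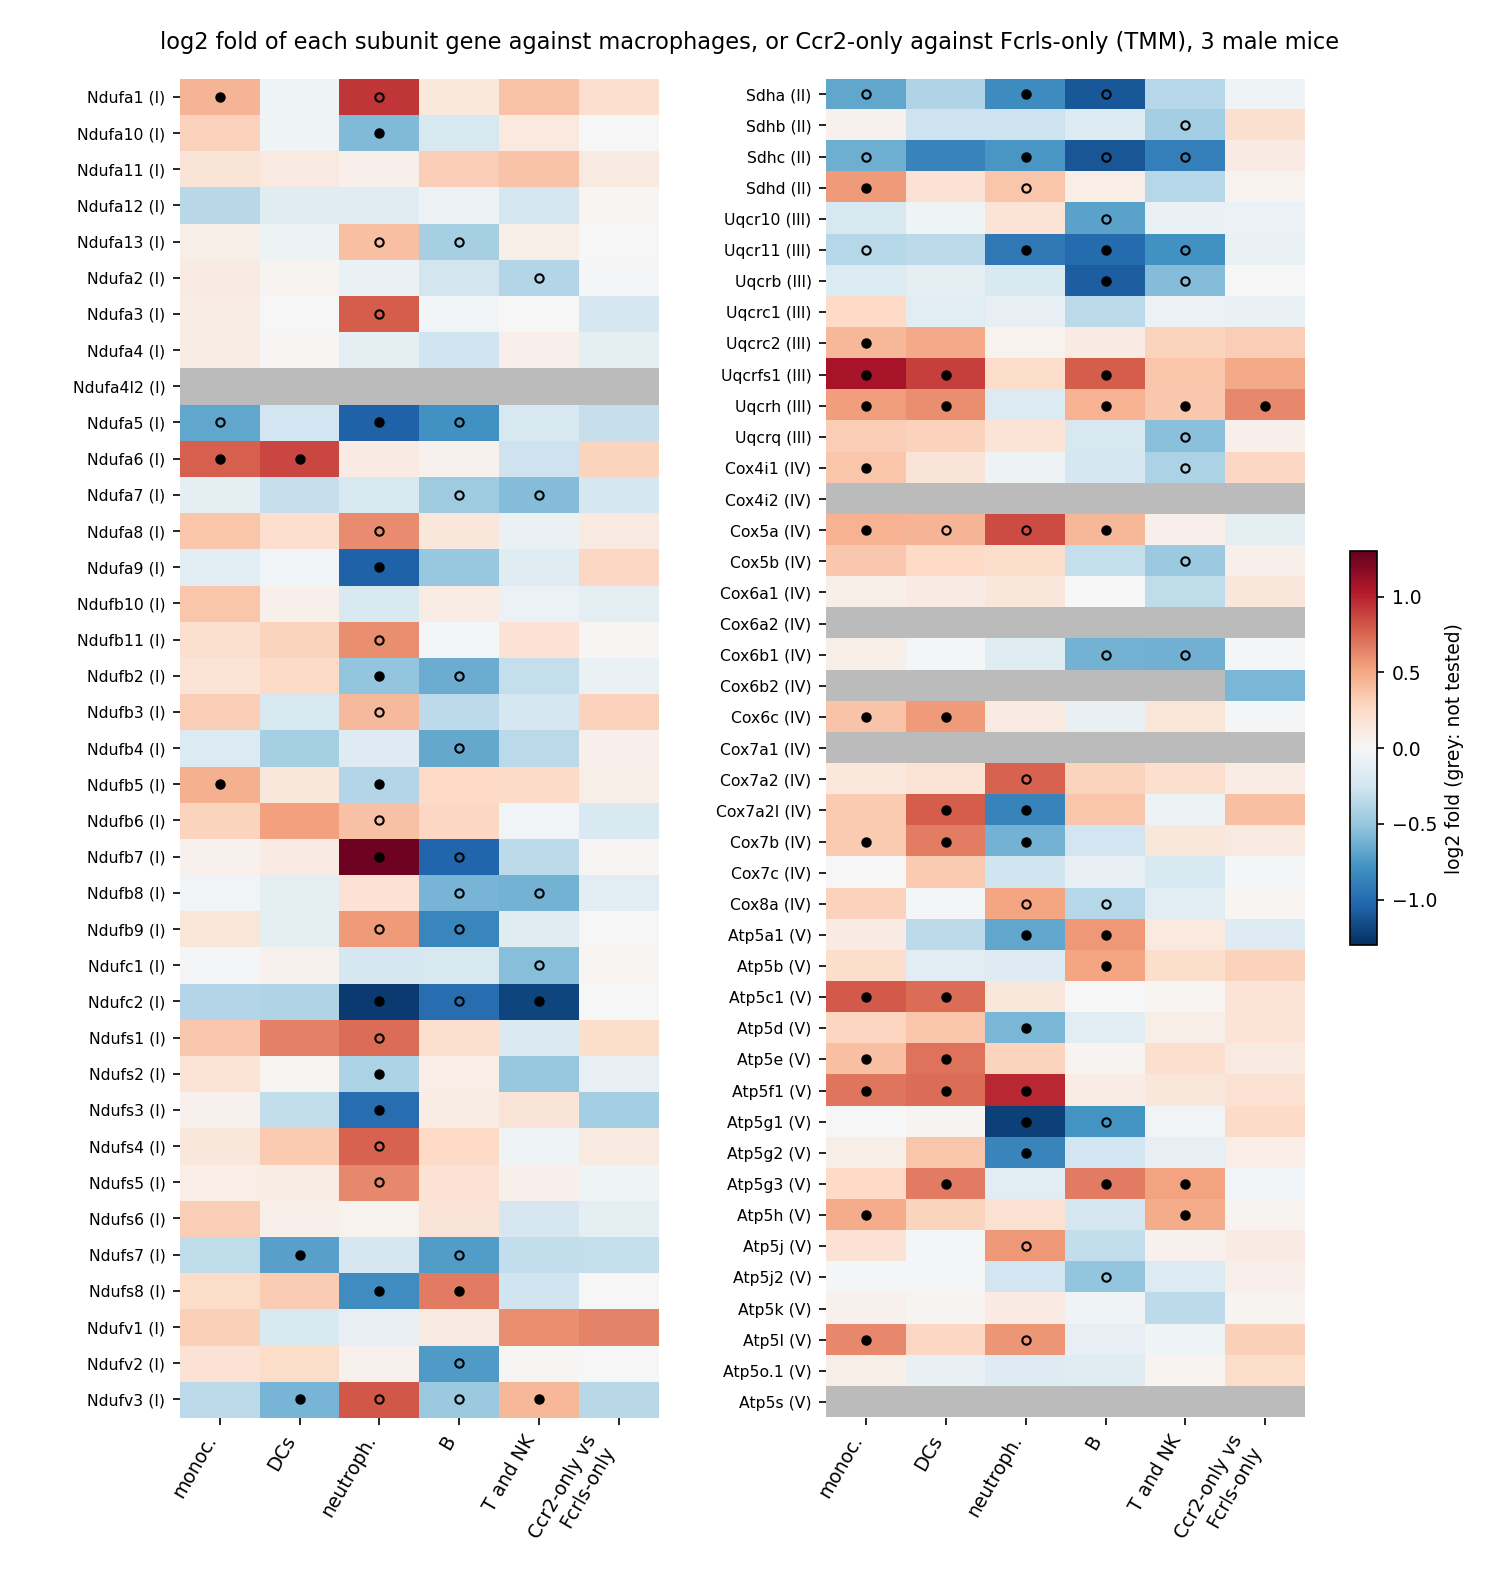
Fitted log2 fold (TMM) of each of the 80 subunit genes, with its complex, in 5 cell types against macrophages and in Ccr2-only against Fcrls-only macrophages, 3 male mice. Filled circles mark calls in the same direction under both scalings, open circles calls with TMM only, and grey was not tested. Uqcrfs1 stood out in monocytes (1.07), Ndufb7 (1.27) and Ndufc2 (−1.24) in neutrophils, and 1 gene, Uqcrh, was called between the macrophage classes.

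The 4 genes of complex II did not move as a unit. The catalytic subunit Sdha had 52.2, 62.8 and 60.4 CPM in macrophages of mice 1, 2 and 3, and 41.8, 40.5 and 46.4 CPM in monocytes. The mean was 21.2 CPM in neutrophils and 41.2 CPM in B cells. Sdhc, a membrane anchor, had a mean of 49.1 CPM in macrophages, 19.0 CPM in neutrophils and 33.5 CPM in B cells. Sdha and Sdhc were lower than in macrophages under both scalings in neutrophils. In monocytes and B cells they were lower with TMM alone, and in monocytes of the 3 female mice the folds had the other sign (0.16 and 0.04). The other membrane anchor, Sdhd, was higher in monocytes, as given above, and Sdhb, the iron-sulfur subunit, had 129 CPM in macrophages, 159 CPM in monocytes and 68.2 CPM in neutrophils.

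The isoforms of complex IV differed in where they were found. Cox4i1, Cox6a1, Cox6b1, Cox7a2 and Cox8a were detected in all 6 types in every mouse. In macrophages of mice 1, 2 and 3, Cox4i1 had 675, 633 and 696 CPM, and in monocytes 1143, 921 and 991 CPM, all above macrophages (log2 fold 0.36, adjusted p = 0.0344, edgeR). The other isoforms were rare, and a share of cells with a UMI depends on depth. Cox4i2, known from lung, had 11 UMIs in all male cells, of which 8 were in macrophages and 2 in DCs. Cox7a1, a muscle isoform, had 150 UMIs, of which 108 (72.0%) were in macrophages, a type that held 55.81% of the male cells and 56.1% of their UMIs. For it, 6 of the 11 cells of a small macrophage cluster led by Cd209g, Cd209f and Fcna had one. All 8 Cox7a1 UMIs of that cluster came from mouse 3, with 0, 0 and 74.7 CPM in mice 1, 2 and 3. Cox6b2, known from testis, had 366 UMIs, with 18.2, 19.7 and 17.4 CPM in macrophages of mice 1, 2 and 3. At least 1 UMI was present in 13.8% of macrophages and 18.7% of monocytes, against 3.36% of neutrophils and 0.730% of T and NK cells, with medians of 8559, 11157, 6343 and 4428 UMIs per cell. DCs, at 13968 median UMIs, had 1 Cox6b2 UMI in 51 cells. Ndufa4l2, the rarer relative of Ndufa4, had 5 UMIs, of which 4 were in the 29 cells of a cluster with fibroblast markers.

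Cox6a2, best known as the heart and muscle isoform of Cox6a1, was concentrated in 11 cells. Of its 273 UMIs, 252 (92.3%) were in these cells, which carried 2 to 45 Cox6a2 UMIs each with a median of 24. They lay in the unnamed cluster of 107 cells and were the cells of it with at least 5 UMIs of Siglech, a receptor known from plasmacytoid DCs, and they had 9 to 32. The limit of 5 was chosen after the values were seen. The cells came from all male mice (2, 2 and 7). They had 2875 CPM of Cox6a2 and 217 CPM of Cox6a1, with 5238 CPM of Bst2 and 970 CPM of Ccr9, which plasmacytoid DCs also express, and 0 UMIs of Mki67. The remaining 96 cells of the cluster had 373 CPM of Cox6a1 and a Cox6a2 UMI in 0 cells, which allows a share of cells with a UMI of up to 3.13%. In other clusters, 79 cells had 5 or more Siglech UMIs, 5 to 9 each, and they held 1 Cox6a2 UMI in all. Neutrophils held a Cox6a2 UMI in 0 of 565 cells, which allows a share of cells with a UMI of up to 0.531%. All other cells together had 20 Cox6a2 UMIs in 2482 cells. B cells held 7 Cox6a2 UMIs in 6 of 135 cells, which gave 22.7, 25.7 and 4.91 CPM in mice 1, 2 and 3. The mean was 0.738 CPM in macrophages, from 13 UMIs. Limits from a count of 0 cover counting error only, and they limit cells with a UMI, not cells that express the gene.

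**Figure D5:**
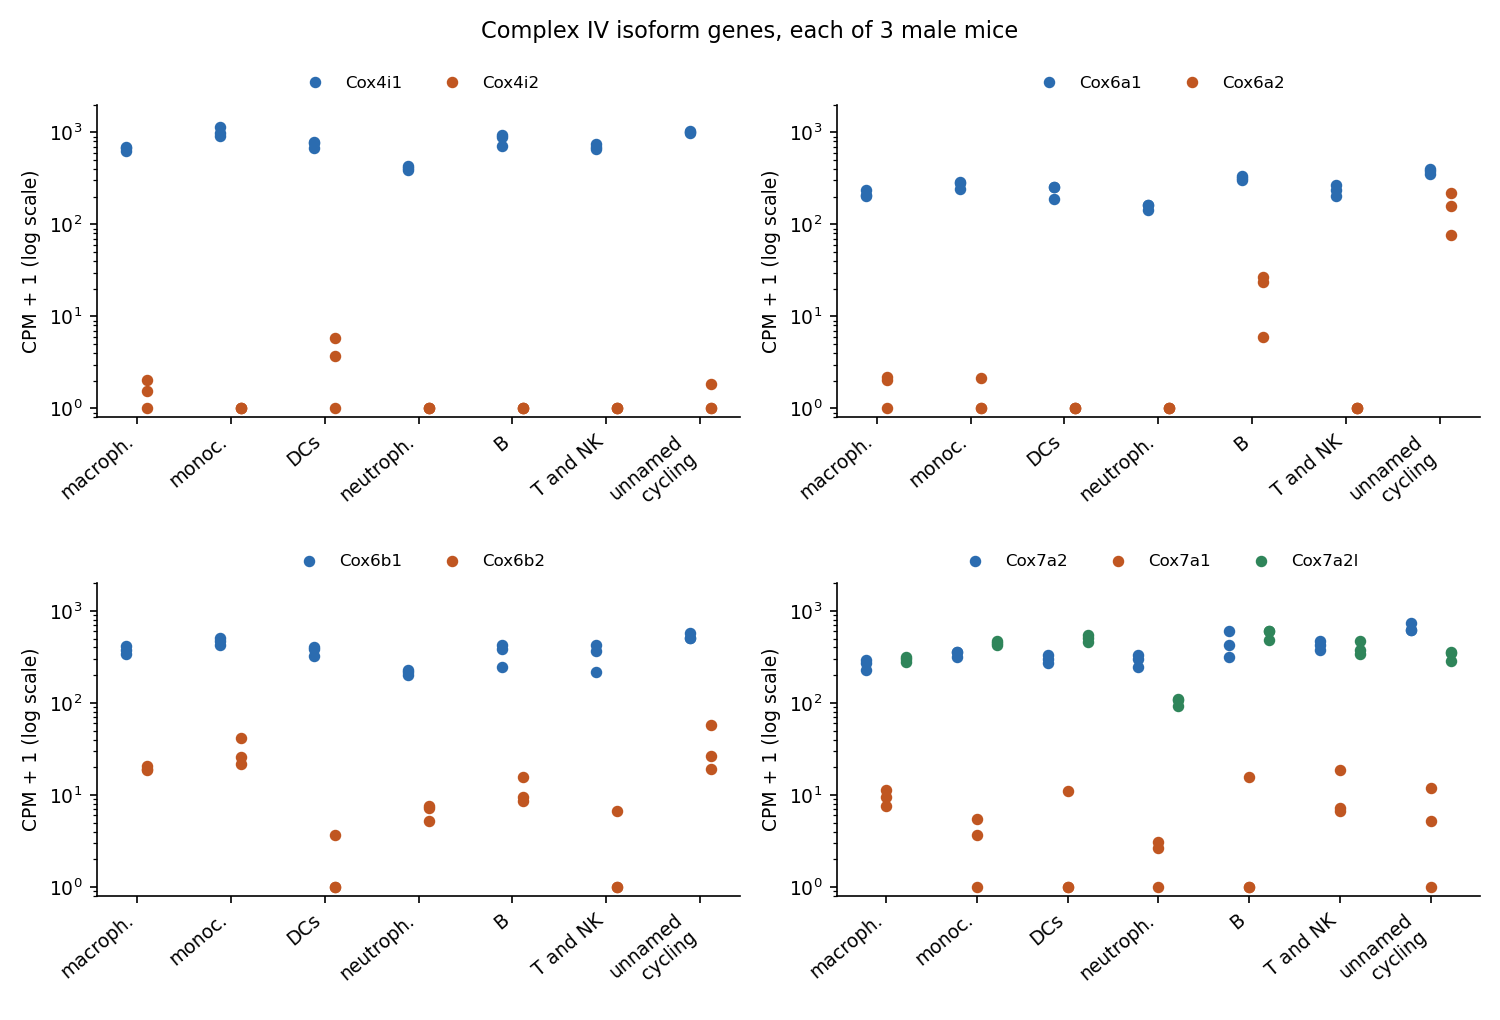
Level (CPM + 1, log axis) of complex IV isoform genes in 6 cell types and the unnamed cycling cluster, where each point is 1 of 3 male mice and points at 1 are 0 CPM. Cox6a2 reached its highest values in the unnamed cluster, where 252 of its 273 UMIs lay, and Cox7a2l was lowest in neutrophils (102 CPM).

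Symbols Cox7b2, Cox8b, Cox8c and Atp5o match the rule in the larger matrix alone, and each had 0 UMIs in the male cells, which allows up to 0.128 CPM over 23403638 UMIs. UMIs of the ATP synthase subunit OSCP were counted under Atp5o.1, which was among the 80. Both symbols stand for 1 subunit, and reads could have been assigned between the entries, so the level of Atp5o.1 is uncertain.

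Genes that feed, build or regulate the complexes were counted from lists of known function. Glycolysis genes stood higher in neutrophils. There 11 of 14 tested were higher and 0 lower with TMM (median log2 fold 2.22), and 10 were higher and 3 lower without factors, against 33.0% of all genes higher with TMM and 18.7% higher and 57.6% lower without factors. Gapdh had 1870 ± 43.5 CPM in neutrophils and 627 ± 70.2 CPM in macrophages (log2 fold 2.22, adjusted p = 1.38e-14, edgeR). Gpi1 had 703 ± 57.1 and 233 ± 24.7 CPM. In monocytes, 9 of 14 glycolysis genes were higher and 0 lower, with a median of 0.62, against 17.7% and 18.4% of all genes. Between Ccr2-only and Fcrls-only macrophages 3 of 12 were higher and 0 lower in male mice and 1 of 10 was higher in female mice, against 5.88% and 4.05% of all genes higher. Mitochondrially encoded subunits were lower for 12 of 12 in neutrophils, 11 of 12 in DCs and 10 of 12 in monocytes with TMM, against 37.0%, 17.9% and 18.4% of all genes lower, and without factors for 12, 11 and 6, against 57.6%, 18.8% and 12.4%.

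Of 14 tricarboxylic acid cycle genes, 4 were higher and 7 lower in neutrophils (2 and 9 without factors), where 33.0% of all genes were higher and 37.0% lower (18.7% and 57.6% without factors), so the counts were near the background. Idh2, mitochondrial isocitrate dehydrogenase, had 7.80 ± 1.69 CPM in neutrophils and 109 ± 8.70 CPM in macrophages, and Mdh2, mitochondrial malate dehydrogenase, had 245 ± 14.8 and 106 ± 6.04 CPM. These are a log2 fold of −3.26 and of 1.84, both called under both scalings. Of the assembly factors, 5 were higher and 9 lower of 23 in neutrophils (2 and 15 without factors), against the same shares of all genes. Cox17, a copper chaperone for complex IV, had 228 ± 18.4 CPM against 124 ± 14.6 CPM in macrophages. Atpif1, the inhibitor of ATP synthase, had 143 ± 26.9 CPM in neutrophils, 310 ± 19.0 CPM in monocytes and 512 ± 38.2 CPM in macrophages, and was lower in both under both scalings. Ucp2, an uncoupling protein family member of the inner membrane, had 315 ± 21.8 CPM in neutrophils and 1063 ± 105 CPM in macrophages. Electron carriers and exchangers, the list of these last 2, had 3 higher and 4 lower of 13 in neutrophils (0 and 9 without factors). Of the 12 regulators of mitochondrial genes listed, 4 could be tested between types, and in neutrophils 3 were higher and 1 lower (2 and 1 without factors), with Yy1 at 143 ± 15.6 CPM in neutrophils and 106 ± 1.75 CPM in macrophages (log2 fold 1.07). In B cells all 4 were higher under both scalings, against 20.0% of all genes with TMM and 37.8% without factors. Esrra, second to Yy1 among the regulators in macrophages with 19.4 CPM, was too low to be tested between types. The tested regulators other than Yy1 were lower still in macrophages and entered the test through types where they were higher. Their direction against macrophages was therefore largely set by the filter and is no result. Between Ccr2-only and Fcrls-only macrophages of the male mice, 0 of 13 mitochondrially encoded subunits, 0 of 23 assembly factors, 0 of 14 tricarboxylic acid cycle genes and 1 of 13 electron carriers and exchangers passed with TMM (edgeR), and the median log2 folds were −0.03, −0.05, −0.06 and 0.02. In this comparison 5.88% of all genes were higher and 4.48% lower with TMM. Without factors 1 tricarboxylic acid cycle gene was lower and no carrier passed, against 6.38% of all genes lower and 4.17% higher.

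The female mice, clustered together with the male cells, gave shares of the 80 genes of 1.379% ± 0.0605 in macrophages, 1.823% ± 0.181 in monocytes, 1.455% ± 0.121 in DCs, 2.123% ± 0.0832 in B cells and 1.955% ± 0.113 in T and NK cells. Monocytes, B cells and T and NK cells were again above macrophages. In the same clustering the male mice had means of 2.047% in monocytes, 1.721% in DCs, 2.493% ± 0.216 in B cells and 1.989% in T and NK cells. The B cells of this clustering took in 43 cells of both sexes together, led by Myl4, Vpreb3 and Igll1, with raised proliferation genes. A cluster of 78 cells led by Csf2, Gata3 and Arg1, with 2 raised T and NK cell markers, stayed unnamed in it. Neutrophils of the female mice were not below macrophages in this clustering, with a mean of 1.405% ± 0.116 and values above macrophages in 2 of 3 mice. In the male mice, neutrophils had 1.32%, 1.24% and 1.403% in mice 1, 2 and 3, and macrophages 1.457%, 1.384% and 1.626%. Male neutrophils were thus below macrophages in each mouse, also in this clustering. Here 1 of the 3 neutrophil clusters, with 35 of 157 female and 142 of 644 male neutrophils, had 2.247% and 2.011%. It was led by Elane and Prtn3, had raised proliferation genes and 3 raised monocyte markers, and held 2343 CPM of the C1q genes, against 628.7 and 141.3 CPM in the other two. The other two neutrophil clusters had 0.668% and 0.8697% in female mice and 0.759% and 0.8691% in male mice, all below macrophages. In the clustering of male cells alone, the neutrophil cluster led by Fcnb and Elane held 65 cells. The unnamed cluster of 107 cells there also had raised primary granule genes. The part of such early cells, and of cells of other types, in the joint cluster led by Elane and Prtn3 was not tested.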

How the data were processed

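RNA was measured as UMI counts per gene and cell (10x 3′ v3, 1 lane). The authors deposited raw counts with no normalization, as a matrix of 2668 cells and a larger one of 4395 barcodes by 31053 genes with 6 hashtag counts. The submitters' processing notes name Cell Ranger, Seurat and mm10, and the matrix header gives software version 3.1.0. The authors' filters, with 200 to 5000 genes and under 5% mitochondrial UMIs, were applied to the larger matrix with HTODemux (Seurat 5.3.0, quantile 0.99), which removed 269 hashtag doublets and 101 negatives. This left 3741 cells, of which the 2668 male cells were those of the smaller matrix with 0 entries different. Scrublet (scanpy 1.11.5) marked 12 cells (0.45%), too few for a working caller, and these were kept.

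Cells were clustered with 2000 variable features (members and mitochondrially encoded genes left out, of which 1 was among them), 15 principal components and resolution 0.5. A cluster took a name from at least 3 markers raised by log2 of 1 in 20% of its cells, and macrophages by at least 50% of the C1q level of the highest cluster. Sums of counts per mouse and cell type were tested with edgeR 4.0.16 (limma 3.58.1, R 4.3.3; filterByExpr, TMM, quasi-likelihood test, Benjamini-Hochberg adjustment over all genes tested, threshold 0.05), after the fit was tested on simulated data. The hashtags mark 3 mice per sex, so p-values measure the spread between these mice. Depth of the male sums per cell type was 99357 to 7570928 UMIs, and precision is lowest in DCs and B cells. In the female mice these sums ran from 60538 UMIs in DCs, of 21 cells in all, to 1675980 in macrophages. CPM is a gene's UMIs per 1000000 UMIs of the sum. It is not scaled by gene length, so levels are compared between samples and not between genes.

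The members and the lists were chosen with earlier results of these data known. Named were the 2 members of each complex with the highest CPM in macrophages, up to 5 called members per direction and comparison, the isoform pairs, and up to 2 genes per list. Classes compared came from the same mice, so the mouse number pairs them by design. Deviations of Ccr2-only and Fcrls-only sums correlated within a mouse with r of 0.0436, 0.0675 and 0.185 in male and 0.102, 0.0313 and −0.00975 in female mice. Alternatives were RLE factors, no factors, no filter, DESeq2 1.42.0, a block for the mouse, each mouse left out, other clusterings and classes, and cells thinned to 2000 UMIs. Promoters were RefSeq entries of GRCm38.p6. Python 3.11.15, numpy 2.4.6, pandas 2.3.3, scipy 1.17.1 and matplotlib 3.10.9 were used.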

Additional observations from a re-analysis of the deposited data

How the results depend on the processing

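Of 655 alternatives to the 47 named folds, 564 kept direction and call, 88 lost the call and 3 reversed. The causes of these changes were not tested.

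Members called between Ccr2-only and Fcrls-only macrophages of male mice (1) were 3 with a replicate block for the mouse and 3 with 6 mice and a sex term. They were 0 in cells thinned to 2000 UMIs and classed again by the thinned counts (where 3 had an unadjusted p under 0.05) and 0 to 1 with a mouse left out. Of all genes, 5.88% were higher and 4.48% lower in the main fit, and 7.3% and 5.85% with the block. It was 8.73% and 7.61% with 6 mice and 3.39% and 3.55% in thinned cells. With a mouse left out it was 2.55% to 3.75% and 1.84% to 2.51%. In female mice (1) the members called were 0 with DESeq2, 0 with classes at 2 UMIs, 0 in thinned cells and 0 with any mouse left out. There 2, 3, 1 and 1 to 4 members had an unadjusted p under 0.05. Of all genes, 4.05% were higher and 3.44% lower in the main fit, and 3.51% and 2.58% with DESeq2. It was 3.42% and 3.6% with classes at 2 UMIs and 1.54% and 3.75% in thinned cells. With a mouse left out it was 0.943% to 1.88% and 1.37% to 2.5%. Against macrophages, the 20 monocyte calls were 36 without scaling factors, 13 without a filter and 12 at resolution 0.8. They were 12 in the 3 female mice and 8 to 13 with a mouse left out. Of all genes, 17.7% were higher and 18.4% lower in the main fit, and 27.5% and 12.4% without factors. It was 7.81% and 9.79% without a filter and 15.8% and 15.3% at resolution 0.8. In the female mice it was 14.1% and 12.6%, and with a mouse left out 12.2% to 13.8% and 13.7% to 15.4%. The 28 B cell calls were 17 to 18 with a mouse left out. Of all genes, 15.3% to 16.5% were then higher and 21.3% to 23.3% lower, from 20.0% and 26.4%. The 17 T and NK cell calls were 7 to 9 with a mouse left out and 35 without scaling factors. Of all genes, 15.9% to 17.3% were higher and 20.4% to 23.2% lower with a mouse left out, from 20.6% and 25.7%. Without factors it was 37.9% and 17.4%. DC calls (13) were 9 to 12 and neutrophil calls (38) 29 to 33 with a mouse left out. In DCs, 10.8% to 14.3% of all genes were then higher and 13.4% to 15.4% lower, from 15.6% and 17.9%. In neutrophils it was 28.1% to 30.6% and 31.2% to 33.8%, from 33.0% and 37.0%. The replicate block, with the mouse pairing the classes, moved no other count by over 1.5 times and ended no named call.

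Without ribosomal protein genes in the total, the share of the 80 genes was 1.749% in macrophages, 2.559% in monocytes, 2.313% in DCs, 2.491% in B cells, 2.636% in T and NK cells, 1.705% in Fcrls-only, 1.813% in double-positive, 1.754% in Ccr2-only and 1.605% in double-negative macrophages. In thinned cells it was 1.541% in DCs and 0.898% in neutrophils, and as a mean over cells 0.894% in neutrophils. With Ndufa4 in complex IV, macrophages had 0.438% for complex I and 0.455% for complex IV. With a mouse left out, the share ranged from 1.422% to 1.542% in macrophages, 2.041% to 2.084% in monocytes, 1.667% to 1.741% in DCs, 1.003% to 1.068% in neutrophils, 1.888% to 2.058% in B cells and 1.883% to 1.997% in T and NK cells. The reversed folds were all in the 3 female mice, with Sdha 0.163 and Sdhc 0.043 in monocytes and Atp5g1 0.110 in neutrophils.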
